A study of Mus musculus with 6 samples.

Results

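Lung expression in ob/ob mice, which lack functional leptin, was examined for 10 genes that make, elongate and desaturate fatty acids: the transcription factor Srebf1, the synthetic enzymes Acly, Acaca and Fasn, the elongases Elovl1 and Elovl6, and the desaturases Scd1, Scd2, Fads1 and Fads2. They were chosen by gene symbol, and every probe set whose platform annotation gives 1 of these symbols was taken, 21 probe sets of the 22626 that are no control and 10 of the 12393 genes so named. RNA came from lungs of female B6.V-Lepob/J mice aged 1 month, which carry the ob mutation of the leptin gene in both groups. Of the 6 arrays, 3 held lungs of mice given leptin and 3 those of mice given saline, with 1 animal per array per the labels. The labels state no dose, route or duration of the treatment, and no wild-type group was analysed here.

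These genes serve the making and remodelling of fatty acids. Acly, ATP citrate lyase, turns cytosolic citrate into acetyl-CoA, Acaca, acetyl-CoA carboxylase, makes malonyl-CoA from it, and Fasn, fatty acid synthase, joins these units into palmitate. Elovl6 lengthens palmitate to stearate and Elovl1 makes very long saturated chains, Scd1 and Scd2 place a double bond in stearate and palmitate, and Fads1 and Fads2 act apart from these steps, on polyunsaturated chains that derive from the diet. Srebf1 encodes SREBP-1, a regulator that drives many of these genes, and leptin is known to lower Srebf1 and Scd1 expression in the liver of ob/ob mice. In the lung the route is best known from alveolar type II cells, which use its products for surfactant phospholipid.

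Saline replicate 1 stood apart from the other 5 arrays and was kept apart in the comparisons. Its log2 values correlated at 0.438 to 0.447 with those of the other arrays, which correlated with each other at 0.973 to 0.978 (Pearson's r over probe sets, a description since these are no replicates). Its 10th percentile of intensity was 57.0, against 16.3 to 19.2 elsewhere. Of the 21 probe sets described here, 14 read lower on it than on each other array and 5 read higher, against 33.8% and 54.6% of all probe sets. The main comparison therefore set 3 leptin arrays against saline replicates 2 and 3, and the values with all 6 arrays stand beside it. Surfactant genes that define alveolar type II cells were bright on those 5 arrays, with Sftpc between 23964 and 29732.

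Without saline replicate 1, no member of the route passed the test. Scd1 was the only member whose interval, not adjusted for the number of probe sets, left out 0. Of the 18 probe sets bright enough to be tested, 13 were lower and 5 higher with leptin, and the median log2 difference was -0.07, against a median of 0.00 over all 15838 probe sets tested, of which 49.7% were lower. No member passed the threshold of a limma adjusted p of 0.05, which 0.0442% of all tested probe sets passed, and the members' adjusted p lay between 0.914 and 1.00. At an unadjusted p under 0.05 there were 2 of 18, both of Scd1 and both lower, against 4.6% of all tested probe sets, 1.98% lower and 2.61% higher. The criterion stated by the series, a change of 1.5-fold held in most pairwise comparisons, was met by 0 of the 21 member probe sets and by 0.492% of all tested. By gene, with the brightest probe set standing for each, 8 of 10 genes were lower and 2 higher.

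How firmly a small difference can be bounded varied between members. For 13 of the 18 tested probe sets the 95% interval of the log2 difference (limma) lay inside 1.5-fold in either direction. The interval is not adjusted for the number of probe sets, so it leaves out 0 where the unadjusted p is under 0.05. It did so only for the 2 Scd1 probe sets, and for the other 16 a missed threshold does not show that the groups were alike. The groups did not overlap for 5 tested probe sets, where 19.6% of all tested did not. Leptin was lower in 4 of these, both Scd1 probe sets, Srebf1 and 1 of Fads2, where 9.66% of all tested probe sets separated that way. It was higher in 1, Acaca, where 9.92% of all did. With all 6 arrays the groups overlapped for each of the 19 probe sets then tested, where 4.1% of all tested separated with leptin lower and 5% with leptin higher.

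**Figure D1:**
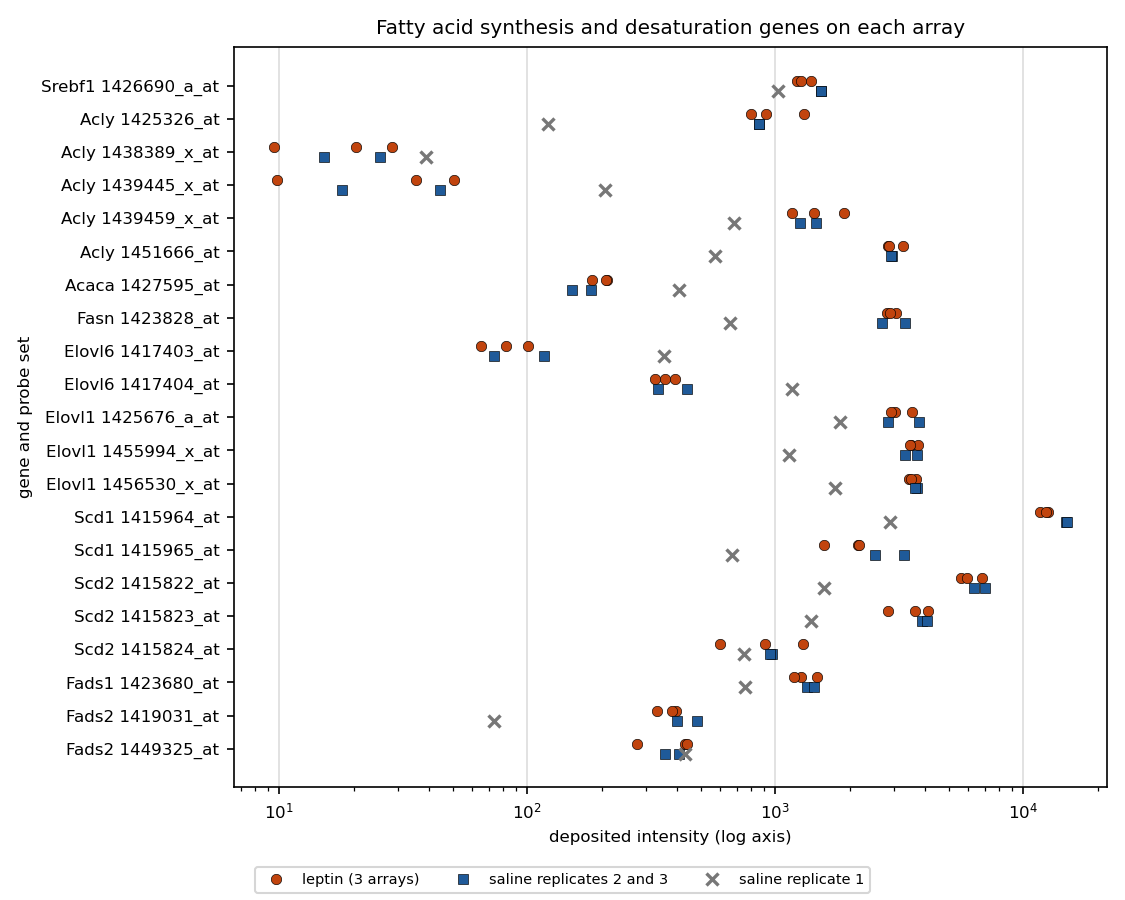
Deposited intensity (log axis) of each of the 21 probe sets on the 3 leptin arrays (circles), saline replicates 2 and 3 (squares) and saline replicate 1 (crosses). Both Scd1 probe sets have their leptin arrays left of saline replicates 2 and 3, and saline replicate 1 lies left of every other array for 14 probe sets.

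**Figure D2:**
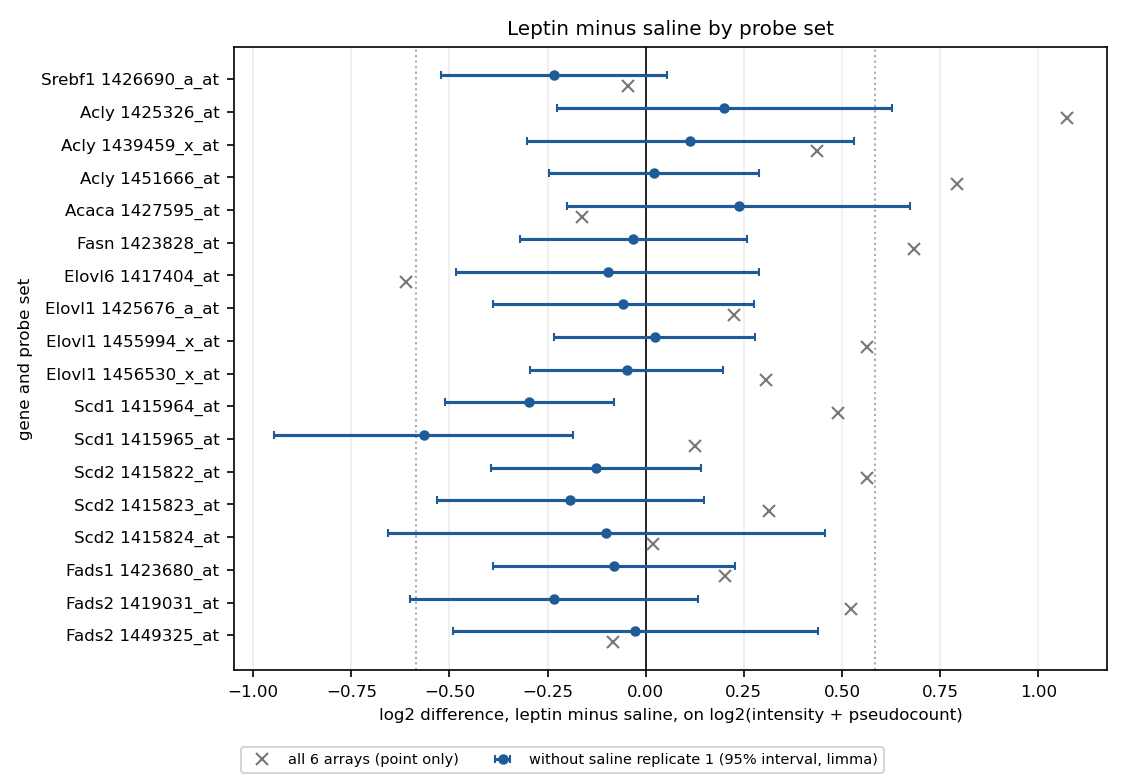
Log2 difference of leptin minus saline for the 18 tested probe sets, without saline replicate 1 (points, with the 95% interval of the limma fit) and with all 6 arrays (crosses, no interval drawn); dotted lines mark 1.5-fold. The intervals of the 2 Scd1 probe sets lie left of 0, and the crosses of Scd1 lie right of it, at 0.49 and 0.13.

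Srebf1, at the head of the route, was slightly lower on the leptin arrays. Its probe set (1426690_a_at) read 1400, 1225 and 1272 on leptin replicates 1 to 3 in turn. It read 1529 on saline replicate 2 and 1528 on saline replicate 3. All 3 leptin arrays were below both saline arrays. The log2 difference was -0.23 ± 0.13 (SE; limma adjusted p = 1.00), with an interval of -0.52 to 0.05. Saline replicate 1 read 1025, below all others, and with it included the difference was -0.04 and the groups overlapped. The array does not separate the products of the gene's different first exons here, since 1 probe set stands for all of them.

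To show the control regions of the route, promoter windows of 300 bases (250 before to 50 after the transcript start, RefSeq, GRCm38.p6, read 5′ to 3′ on the gene's strand) are given for Fasn and for Srebf1, the factor and its best-known target. The NF-Y box CCAAT, bound by a factor that acts beside SREBP at many lipid genes, is in capitals, and appears as ATTGG where it lies on the other strand. The Fasn window is chr11:120824498-120824797 on the minus strand. The Srebf1 windows that hold the box are chr11:60222532-60222831 and chr11:60210422-60210721, both on the minus strand and belonging to different transcript starts.
Fasn: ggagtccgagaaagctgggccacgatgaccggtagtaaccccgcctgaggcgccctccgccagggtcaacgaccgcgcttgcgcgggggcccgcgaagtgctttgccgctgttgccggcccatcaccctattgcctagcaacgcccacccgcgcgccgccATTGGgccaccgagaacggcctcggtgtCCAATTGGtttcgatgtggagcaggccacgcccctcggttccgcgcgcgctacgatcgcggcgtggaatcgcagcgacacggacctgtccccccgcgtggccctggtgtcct
Srebf1, first window: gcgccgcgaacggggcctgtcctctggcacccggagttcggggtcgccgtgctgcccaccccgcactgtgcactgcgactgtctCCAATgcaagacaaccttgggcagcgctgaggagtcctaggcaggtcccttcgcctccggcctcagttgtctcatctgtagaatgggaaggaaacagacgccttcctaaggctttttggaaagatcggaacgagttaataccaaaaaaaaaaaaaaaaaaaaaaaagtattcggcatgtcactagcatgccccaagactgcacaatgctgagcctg
Srebf1, second window: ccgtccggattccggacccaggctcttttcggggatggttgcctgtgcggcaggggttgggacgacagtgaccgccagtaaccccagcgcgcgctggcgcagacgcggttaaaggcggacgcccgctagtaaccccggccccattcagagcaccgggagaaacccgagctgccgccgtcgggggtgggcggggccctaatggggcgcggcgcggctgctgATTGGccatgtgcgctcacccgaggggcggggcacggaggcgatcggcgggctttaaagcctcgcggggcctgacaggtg

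The table of promoter windows held 7 of the 10 genes, in 10 windows, and did not hold Scd1, Scd2 or Fads1. CCAAT was found on either strand in 5 of the 10 windows, those of Fasn, Acly, 1 of 2 for Elovl1 and 2 of 3 for Srebf1, against 37.4% of all 32851 windows. The Fasn window holds 3 matches, of which the last 2 overlap each other on opposite strands, beginning 90, 62 and 59 bases before the start. The E-box CACGTG was found in 0 of the 10 windows and in 7.15% of all. The core of the sterol regulatory element, searched as TCACNCCAC on both strands, was found in 0 of the 10 and in 1.24% of all. These matches describe letters in a short window and were not tied to the measurements.

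Of the enzymes that make palmitate, Fasn and Acly overlapped between groups and Acaca read higher with leptin. Fasn (1423828_at) read 3083, 2819 and 2898 with leptin and 2689.5 and 3339 with saline, so the saline arrays enclosed the leptin arrays. Its log2 difference was -0.03 ± 0.13 (limma, interval -0.32 to 0.26), and it turned to 0.12 without saline replicate 3.

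Acly, which supplies acetyl-CoA, was measured by 5 probe sets, of which 3 were tested. The brightest (1451666_at) read 3279, 2843 and 2862 with leptin and 2954 and 2936 with saline, at 0.02 ± 0.12. The other 2 tested, 1425326_at and 1439459_x_at, were at 0.20 ± 0.19 and 0.11 ± 0.19, and leptin replicate 1 and leptin replicate 3 respectively were the highest arrays. The groups overlapped for all 3. The 2 left out of the test, 1438389_x_at and 1439445_x_at, read between 9.5 and 50.8 on the 5 arrays, within the dimmest 30% of probe sets.

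Acaca (1427595_at), the malonyl-CoA step, read 209, 208 and 182 with leptin and 152 and 181 with saline. The leptin arrays were above both saline arrays, though leptin replicate 3 exceeded saline replicate 3 by little. The difference was 0.24 ± 0.20 (limma adjusted p = 1.00), with an interval of -0.20 to 0.67, and it was 0.13 without saline replicate 2 and 0.35 without saline replicate 3. On saline replicate 1 it read 409, above every other array, so that the difference on all 6 arrays was -0.16.

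The elongases gave no separation between groups. Elovl1, which makes very long saturated chains, had 3 probe sets, at -0.06 ± 0.15, 0.02 ± 0.12 and -0.05 ± 0.11. The brightest (1456530_x_at) read 3682, 3475 and 3522 with leptin and 3713 and 3650.4 with saline, with an interval of -0.29 to 0.20. Elovl6 (1417404_at), which lengthens palmitate, read 393, 361 and 326.5 with leptin and 338 and 439.5 with saline, at -0.10 ± 0.18. Its other probe set (1417403_at) read 64.8 to 101 with leptin and 73.2 and 117 with saline, and fell below the filter. On saline replicate 1 the Elovl6 probe sets read 1163 and 355, 2.99 and 3.73 times the mean of the other saline arrays, whereas all 3 Elovl1 probe sets read lower there.

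Scd1, the stearoyl-CoA desaturase that leptin is known to lower in liver, read lower with leptin on both of its probe sets. The brighter (1415964_at) read 11687, 12554 and 12341 with leptin and 14895 and 15058 with saline. The leptin arrays lay close together, at 12190 ± 452 (SD, n = 3), and all were below both saline arrays, at 14980 ± 116 (SD, n = 2). The log2 difference was -0.30 ± 0.10, a change of -18.6%, with an interval of -0.51 to -0.08 (limma adjusted p = 0.970).

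The second Scd1 probe set (1415965_at) read 2160, 1578 and 2172 with leptin and 2536.5 and 3307 with saline. Again no leptin array reached a saline array, but the spread within both groups was wider, and leptin replicate 2 and saline replicate 3 were the outermost. The difference was -0.57 ± 0.17, with an interval of -0.95 to -0.18 (limma adjusted p = 0.914). It was -0.38 without saline replicate 3 and -0.76 without saline replicate 2, whereas the brighter probe set stayed between -0.32 and -0.27 when any of the 5 arrays was left out. Neither passed the adjusted threshold.

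The Scd1 difference depends on setting saline replicate 1 apart. That array read 2903 and 669 on the 2 probe sets, below every leptin array, and with all 6 arrays the differences were 0.49 ± 0.77 and 0.13 ± 0.62 (limma adjusted p = 0.755 and 0.918). Every tested probe set of Fasn, Acly, Elovl1, Scd2 and Fads1 also read lower on it than on saline replicates 2 and 3, from 1.29 to 7.09 times.

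Scd2, another stearoyl-CoA desaturase, had 3 probe sets, all lower with leptin and all with overlapping groups. The brightest (1415822_at) read 5624, 5918 and 6851 with leptin and 6356.5 and 7000.1 with saline, at -0.13 ± 0.12. The next (1415823_at) read 3650.5, 4132 and 2851 with leptin and 3918 and 4094 with saline, at -0.19 ± 0.15. The third (1415824_at) ranged from 601 to 1298 within the leptin group and read 971 and 949 with saline, at -0.10 ± 0.25. The intervals of all 3 took in 0 and, for the brightest, reached from -0.39 to 0.14.

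Of the desaturases of polyunsaturated chains, Fads1 overlapped between groups and Fads2 differed by probe set. Fads1 (1423680_at), the delta-5 desaturase, read 1268, 1473 and 1195.5 with leptin and 1340 and 1428.5 with saline, at -0.08 ± 0.14. Fads2, the delta-6 desaturase, had 2 probe sets. The first (1419031_at) read 333, 398 and 383 with leptin and 401 and 482 with saline, without overlap, at -0.23 ± 0.17 (limma adjusted p = 1.00). Leptin replicate 2 and saline replicate 2 were nearly equal there. The second (1449325_at) read 432, 441.5 and 277 with leptin and 409.5 and 358 with saline, at -0.03 ± 0.21, with overlap.

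Since every array was scaled as a whole, ratios between members on the same array were also examined, a choice made after the values were seen. Each ratio takes the brightest probe set of both genes, as a log2 value minus its mean on saline replicates 2 and 3. Scd1 over Acly was at -0.51, -0.20 and -0.24 with leptin, and at -0.01 and 0.01 with saline. Scd1 over Elovl1 was at -0.36, -0.17 and -0.21 with leptin and at -0.02 and 0.02 with saline. In both, all leptin arrays were below both saline arrays.

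Scd1 over Scd2 was at -0.11, -0.08 and -0.32 with leptin and at 0.06 and -0.06 with saline, a separation of about 0.02. Scd1 over Fasn was at -0.40, -0.17 and -0.23 with leptin, and Fasn itself spread the saline arrays to 0.15 and -0.15. Scd1 over Srebf1 overlapped between groups, at -0.23, 0.07 and -0.01 with leptin against -0.01 and 0.01. Saline replicate 1 lay at -0.01 for Scd1 over Acly, at -0.18 over Fasn and at -0.28 over Scd2, but at -1.29 over Elovl1 and -1.79 over Srebf1. No test was run on these ratios, and 3 arrays against 2 cannot reach a small p by permutation. All of them reuse the brighter Scd1 probe set, whose groups already did not overlap.

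**Figure D3:**
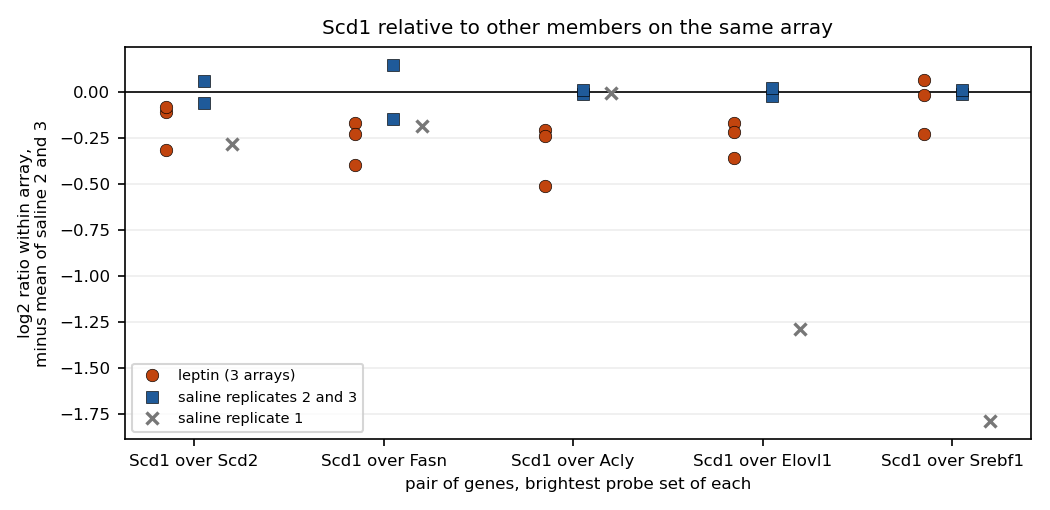
Log2 ratio of Scd1 to 5 other members on the same array, minus the mean of saline replicates 2 and 3, for leptin arrays (circles), saline replicates 2 and 3 (squares) and saline replicate 1 (crosses). The leptin arrays lie below the saline squares over Scd2, Fasn, Acly and Elovl1 and overlap them over Srebf1, and saline replicate 1 lies near 0 over Acly only.

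Markers of the cells that could carry these transcripts were read beside them. In bulk tissue, fewer cells of a type and less RNA per cell cannot be told apart. Of 8 alveolar type II markers 7 were on the array and tested, 3 higher and 4 lower with leptin, at a median of -0.07. Their summed intensity was 83380 to 92430 with leptin and 93570 and 94190 with saline, saline replicate 1 again left out. These sums did not overlap, but the brightest genes weigh most in a sum. By gene, only 1 of the 7, Sftpb, was lower without overlap and 0 higher, against 9.66% and 9.92% of all tested probe sets. Of the defining markers, Sftpc was at -0.10 ± 0.11 and Abca3 at 0.13 ± 0.13, and Lamp3 was not matched. The intervals of Sftpc (-0.34 to 0.14) and Abca3 (-0.15 to 0.41) took in 0, and both genes overlapped between groups. Sftpb, a surfactant protein named after its value was seen, was at -0.22 ± 0.10 (limma adjusted p = 1.00), without overlap. The part of these cells in the Scd1 values was not tested.

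Adipocytes, which express the whole route strongly, could enter with fat at the lung root. Of 9 adipocyte markers 7 were on the array and 5 tested, 3 higher and 2 lower, with summed intensity of 2939 to 3418 with leptin and 2977 to 2980 with saline. Adipoq, the adipocyte hormone adiponectin, read 513, 624 and 655 with leptin and 428 and 475 with saline, at 0.38 ± 0.16 (limma adjusted p = 1.00), with all leptin arrays above both saline arrays. Other markers of the list lay the other way. Lep, the leptin gene itself, read 59.1, 21.3 and 18.0 with leptin and 132 and 124.5 with saline, without overlap. It was too dim to be tested, though it met the series' criterion on these 5 arrays. Lipe, hormone-sensitive lipase, was at -0.16 ± 0.16, with overlap. Lep and Lipe were named after their values were seen. Cidec, a lipid droplet protein of fat cells, was at 0.06 ± 0.25, and Plin1 was not matched. Macrophage markers summed to 11460 to 12590 with leptin and 10940 to 14150 with saline and overlapped. Of the 5 tested, 4 were higher and 1 lower, at a median of 0.12, and all overlapped between groups. The lower gene was Lpl, among the brightest of the list and named after its value was seen, at -0.28 ± 0.13. Marco, too dim to be tested, was higher without overlap.

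The lipofibroblast markers also overlapped, at 7966 to 8823 and 8114 to 8842 as summed intensity. Club cell markers did too as sums, at 76900 to 86020 and 83160 to 85020. By gene, 1 of the 5 club cell markers was higher without overlap and 2 lower, against 9.92% and 9.66% of all tested probe sets. Smooth muscle markers summed to 6036 to 7331 with leptin and 5308 to 5530 with saline, without overlap. All 3 genes were higher without overlap, where 9.92% of all tested probe sets separated that way. Cnn1 was at 0.50 ± 0.18, Myh11 at 0.42 ± 0.15 and Acta2 at 0.21 ± 0.12, and none passed the threshold (limma adjusted p = 1.00 for each). Erythroid markers summed to 4649 to 6080 with leptin and 11020 to 13630 with saline. The threshold was passed by 0.0442% of all tested probe sets, and of the 5 tested erythroid genes by 3, all lower. These were Alas2 at -1.20 ± 0.15, Slc25a37 at -1.20 ± 0.14 and Bpgm at -1.16 ± 0.16, each at a limma adjusted p of 0.0496. All 3 lost the call with the replicate number as a block (limma adjusted p = 0.0942) and without leptin replicate 1, saline replicate 2 or saline replicate 3, and with all 6 arrays they were at 1.12, 0.27 and -0.04. The 3 erythroid calls were also lost under quantile normalization, equal medians, a pseudocount of 1, no filter and no trend. The part of these cell types in the values of the route was not tested.

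The rest of the pathway was followed through lists of genes that surround these 10, each gene represented by its brightest probe set. In none of these lists did a gene pass the limma adjusted threshold, against 0.0442% of all tested probe sets. By brightest probe set, an unadjusted p under 0.05 was reached by 0 higher genes in each list, and by 1 lower in carbon and NADPH supply and 2 lower in cholesterol synthesis. Over all 119 tested probe sets of the lists it was reached by 3 higher and 8 lower, against 2.61% and 1.98% of all tested probe sets. The groups did not overlap for 8 of the 119 with leptin higher and 28 with leptin lower, against 9.92% and 9.66%. Probe sets of the same gene are not independent, and several disagreed. The medians by gene lay between -0.21 and -0.02.

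Carbon and NADPH supply, which feeds the route, had 8 of 10 genes tested, 1 higher and 7 lower, at a median of -0.07. Pgd, which yields NADPH in the pentose phosphate pathway, read 1384, 1483 and 1399 with leptin and 1743 and 1727.5 with saline, at -0.28 ± 0.12 (limma adjusted p = 1.00). All leptin arrays were below both saline arrays, and its other 3 probe sets separated the same way, at -0.28, -0.35 and -0.20. Aacs, acetoacetyl-CoA synthetase, was at -0.27 ± 0.19 and Mdh1, cytosolic malate dehydrogenase, at -0.15 ± 0.12, both without overlap. A further tested Aacs probe set was also lower without overlap, at -0.46. Another Mdh1 probe set was at 0.12, higher without overlap, and a further tested one was at -0.22, with overlap. The probe sets of Me1, malic enzyme, disagreed: the brightest was at -0.05 ± 0.13, with overlap. The other read 903, 797 and 810 with leptin and 1111 and 1305 with saline, at -0.52 ± 0.14, without overlap (limma adjusted p = 0.762, a smaller p than that of either Scd1 probe set). On all 6 arrays that Me1 probe set was at 0.49. Me1 was named after its values were seen.

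Other synthesis and elongation enzymes had 20 of 26 tested, 6 higher and 14 lower, at a median of -0.04. Mid1ip1, which activates acetyl-CoA carboxylase, read 5010.5, 5001 and 5145 with leptin and 5586 and 6350 with saline, at -0.24 ± 0.11. The elongase Elovl7 was at -0.16 ± 0.19 and Hacd3, a dehydratase of chain elongation, at -0.08 ± 0.12, both lower without overlap. Hacd2, of the same enzyme family, was at 0.16 ± 0.13, higher without overlap. The other tested Hacd3 probe sets were at -0.31 and 0.13. Chosen after their values were seen, dimmer probe sets of Fads3, a relative of the Fads desaturases, and Tecr, the last reductase of chain elongation, were higher without overlap, at 0.99 ± 0.32 and 0.30 ± 0.13 (limma adjusted p = 0.970 and 1.00). The brightest were at -0.02 ± 0.14 and 0.11 ± 0.12, with overlap.

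Control of the SREBP and LXR programme had 17 of 22 tested, 6 higher and 11 lower, at a median of -0.08. Scap, the escort that brings SREBP to the Golgi, read 741, 840 and 704.5 with leptin and 848 and 943 with saline, at -0.23 ± 0.15. Mbtps1, the protease that cuts it there, read 1697, 1719 and 1822 with leptin and 1506 and 1608 with saline, at 0.16 ± 0.12, with another tested probe set at -0.07. Neither overlapped between groups on the probe set named first.

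Acyl-CoA synthetases and glycerolipid entry had 9 of 13 tested, 3 higher and 6 lower, at a median of -0.02. Lpin2, a phosphatidate phosphatase, was at -0.25 ± 0.12, with other probe sets at -0.36 and 0.13. Lpcat1, the acyltransferase that makes the saturated phosphatidylcholine of surfactant, was at -0.11 ± 0.10. All 3 Lpcat1 probe sets had their leptin arrays below both saline arrays, the others at -0.29 and -0.25.

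Cholesterol synthesis, the sister programme driven mainly by SREBP-2, had 14 of 17 tested, 3 higher and 11 lower, at a median of -0.21, beside -0.09 for the 10 genes of fatty acid synthesis by their brightest probe sets. In 5 of these 14 genes all leptin arrays were below both saline arrays, against 9.66% of all probe sets, and in 0 were all above. Over the 24 tested probe sets of the list, 6 separated with leptin lower and 3 with leptin higher, against 9.66% and 9.92% of all tested. The difference between these lists was not tested. Fdps, which makes farnesyl pyrophosphate, read 994, 736 and 759 with leptin and 1158 and 1131 with saline, at -0.47 ± 0.16 (limma adjusted p = 1.00). Fdft1, squalene synthase, read 537, 501 and 515 with leptin and 697 and 672 with saline, at -0.39 ± 0.14 (limma adjusted p = 1.00). Other tested Fdft1 probe sets were at -0.21, with overlap, at 0.27, higher without overlap, and at -0.75, lower without overlap. Nsdhl and Sc5d, later sterol enzymes, were at -0.24 ± 0.16 and -0.21 ± 0.15. Another Sc5d probe set went the other way, at 0.41, higher without overlap. Hmgcs1, which makes the HMG-CoA of this pathway and was named after its values were seen, ran the other way on 1 of 4 probe sets. There the leptin arrays read 1011, 1201 and 1133 and the saline arrays 706 and 933, at 0.44 ± 0.16, without overlap (limma adjusted p = 1.00). The other Hmgcs1 probe sets overlapped, at 0.06 for the brightest and at -0.07 and -0.19.

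**Figure D4:**
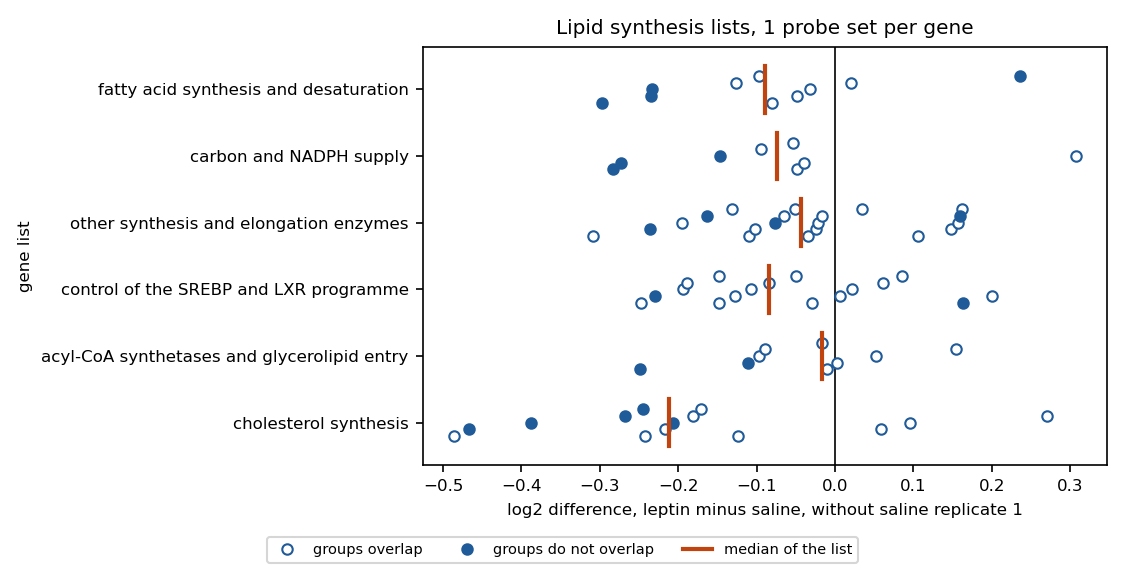
Log2 difference of leptin minus saline without saline replicate 1 for the genes of 6 lists, 1 probe set per gene; filled points mark genes whose groups do not overlap and bars the median of each list. The medians lie at -0.09 for fatty acid synthesis and desaturation and at -0.21 for cholesterol synthesis, and between -0.08 and -0.02 for the other lists.

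The genes whose pattern over the 5 arrays was most like that of Scd1 (1415965_at, the member probe set with the smallest p) were Il34, Rasd2 and Grb2. Likeness was the root mean square difference of log2 values, each centred on its own mean, which was 0.092 for Il34, 0.098 for Rasd2 and 0.099 for Grb2 among 14556 probe sets of other genes. The brighter Scd1 probe set was at 0.258 by the same measure, so the pair of Scd1 probe sets differed more from each other than these genes did from the dimmer of them. With 5 arrays, such likeness is a description.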

How the data were processed

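Total RNA of 6 lungs was measured on Affymetrix Mouse 430A arrays. Extraction was with Trizol, per the labels' protocols. The deposited values are linear intensity values, 1 per probe set and array. The summarisation software was not given in the sources used here. The mean of each array, trimmed by 2% at both ends, was 500.10 to 500.14, so all had been scaled. For arrays, their number limits the precision.

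Of 22690 probe sets, 64 controls were left out. The platform annotation gave 1 symbol to 20380. Values were taken as log2(intensity + 22.0), with the 10th percentile of the table as pseudocount, so that changes of dim probe sets come out too small. The lowest 30% by mean log2 value were dropped. The other 15838 were fitted by limma 3.58.1 under R 4.3.3 (trend of variance on level, two-sided, Benjamini-Hochberg), leptin minus saline, and checked on simulated data. The series' criterion needs 1.5-fold in at least 6 of 9 pairwise comparisons, or 4 of 6 on 5 arrays, and its unnamed test was taken as a 2-sample test with pooled variance on log2 values.

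The members and gene lists were chosen with earlier results of these data known. The text names all 10 members, every list gene past the threshold, up to 4 separated genes per pathway list with the smallest p, and, by the rule, the first 3 markers of each cell type list. For club cells, macrophages, lipofibroblasts and erythroid cells (beside their genes past the threshold) sums are given instead. Counts by gene are added for club cells and macrophages. Genes named outside the rule are marked as chosen after their values were seen. Sequences are RefSeq's, and protein sequences were not used here.

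The labels do not say that replicate numbers pair animals. After subtracting group means, leptin and saline arrays of the same number correlated at 0.103 to 0.144, other pairs at -0.147 to 0.0491. Saline replicate 1 was included in its group mean. Deviations from a group mean offset each other, so a positive correlation of 1 pair pushes others below it. These correlations therefore depend on each other and cannot decide whether the numbers pair the samples. A replicate block, other normalizations, pseudocounts, filters and variance priors, array weights and leaving out arrays were tried as alternatives.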

Additional observations from a re-analysis of the deposited data

How the results depend on the processing

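With 2 saline arrays left, small differences are poorly bounded, and dim probe sets (Elovl6 1417403_at, 2 of Acly) could not be tested. No member and no pathway gene passed the adjusted threshold under any alternative run, on 5 or 6 arrays. The median difference of the member probe sets, -0.07, ranged from -0.10 to -0.03 when another array was left out, and moved beyond the spread between replicates in 1 setting, all 6 arrays, where it was 0.31 (14 of 19 probe sets higher). The criterion of the series gave 0 members on 5 and on 6 arrays.

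The 7 calls over all probe sets became 0 in 7 settings (replicate block, no trend, all 6 arrays, no filter, quantile normalization, a pseudocount of 1, equal medians), 13 at an adjusted threshold of 0.10, and 0 to 3 when another array was left out (0 without leptin replicate 1 or saline replicate 3). On all 6 arrays 0 passed (61 at an unadjusted p under 0.05, 0.385%), 8 with array weights (0.0257 for saline replicate 1) and 0 to 7 when an array was left out, with 7 without saline replicate 1. The replicate block changed no call of a member or pathway gene. It turned 1 value, Acly (1451666_at), to -0.05, and gave Scd1 -0.27 and -0.64 (limma adjusted p = 0.650 and 0.387).

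With all 6 arrays the sign turned for Acaca (-0.16), Fasn (0.68), Elovl1 (0.22 and 0.31), Scd1 (0.49 and 0.13), Scd2 (0.56, 0.31 and 0.02), Fads1 (0.20) and Fads2 (0.52). It also turned for Pgd (1.13), Mdh1 (1.24), Mid1ip1 (0.78), Hacd2 (-0.11), Scap (0.95), Lpin2 (0.37), Lpcat1 (1.44), Fdft1 (0.39), Sc5d (0.12), Alas2 (1.12) and Slc25a37 (0.27). These probe sets read outside the range of the other saline arrays on saline replicate 1. With array weights the sign turned for Fasn alone (0.01).

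Leaving out 1 of the 5 arrays turned the sign within these ranges: Acly -0.07 to 0.27 and -0.05 to 0.06, Fasn -0.19 to 0.12, Elovl6 -0.28 to 0.08, Elovl1 -0.26 to 0.15 and -0.05 to 0.10, Scd2 (1415824_at) -0.36 to 0.18 and Fads2 (1449325_at) -0.14 to 0.18. The signs of Scd1, Srebf1, Acaca, Fads1, the other Scd2 probe sets and Fads2 (1419031_at) held in each of these.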

Other observations

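Some genes beside the route read differently on saline replicate 1 from probe set to probe set. Pgd read 70.6 there on its brightest probe set and 2858, 4244 and 16922 on the other 3, where saline replicates 2 and 3 read 1743 and 1727.5 on the first and between 833 and 1276 on the others. Mdh1 read 125 on its brightest probe set and 6377 on another, against 2489 and 2684, and 1556 and 1607.5. Hacd3 read 49199, 688 and 926 on its 3 probe sets, against 2675 and 2871, 920.5 and 766, and 2698 and 2792. Among the members, Acly read lower there on its 3 tested probe sets and higher, at 38.9 and 206, on the 2 dimmest.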
